A study of Cricetulus griseus with 16 samples.

Results

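The transcriptome of CHO cells kept at 40 °C for 6 h was compared with that of CHO cells kept at the same temperature for 1 h. CHO (ATCC CCL-61) is an established line of Chinese hamster ovary cells, and 40 °C is a fever-range temperature, a mild heat stress for cells that are grown at 37 °C. All genes of the count matrix entered the comparison, and the 8 libraries were chosen by their labels, 4 for each duration, out of 16 in the series. Every culture was seeded 24 h before heating and grown in Ham's F-12K medium with fetal bovine serum and antibiotics, and the labels name no other agent or genetic change in either group. The comparison addresses how the length of a mild heat exposure changes gene expression. Neither heated group has a 37 °C control known to be of its own age: there is 1 group at 37 °C, whose collection time the labels do not give. In the differences given here, 5 h more of heat and 5 h more of culture cannot be told apart. Levels at 37 °C are therefore given as a range over replicates A to C, with replicate D beside it, and no test was made against them. Replicate D stood apart from the other control libraries, with Pearson's r across genes of 0.9714 to 0.9742 against 0.9959 to 0.9966 among A to C, and the study left out 1 control library that it did not name.

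As background, heat unfolds proteins, and heat shock factor 1 answers by switching on genes for cytosolic chaperones (the HSP70, HSP90, HSP40 and small heat shock protein families) and for the co-chaperones that steer them. Unfolded protein in the endoplasmic reticulum (ER) is sensed separately, and that unfolded protein response switches on ER chaperones such as BiP. A change of medium, temperature or growth factors also switches immediate early genes on within minutes, and many of their transcripts decay quickly.

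The 8 libraries held between 11153350 and 14668365 counted reads. Libraries of one group were slightly closer to each other (Pearson's r across genes of log2 CPM, the read count scaled to library size, 0.9939 to 0.9958) than libraries of the 2 groups (0.9887 to 0.9934). The first principal component took up 40.5% of the variance and kept the groups apart, with scores of −11.5 to −7.87 at 1 h and 5.35 to 16.1 at 6 h. At the ends of the 6 h group lay replicate B, at 16.1, and replicate A, at 5.35. The same libraries marked the range of the changed genes: among the 4 libraries at 6 h, replicate B was the highest in 34 of the 58 genes called higher below and replicate A was the lowest in 35 of them. All 6 mesenchymal markers had enough counts to be tested, among them Vim, which encodes vimentin, with a mean of 2179 CPM at 1 h and 2009 CPM at 6 h. Of the 4 epithelial markers Krt19 and Cldn4 were at 0 and Cdh1 was at 1.80 CPM at 1 h and 2.40 CPM at 6 h (adjusted p = 0.129), and none of the 9 endothelial and immune markers found had enough counts to be tested. Among ovarian granulosa markers, Foxl2, Fshr and Cyp19a1 were at 0 in both groups, whereas Star, a cholesterol transporter of steroid-producing cells, had means of 5.25 CPM at 1 h and 7.33 CPM at 6 h (log2 difference 0.48, adjusted p = 0.015, not past the threshold without 6 h replicate B or C). Amh and Inha of the same list had means of 3.71 and 1.53 CPM at 1 h and 4.84 and 1.96 CPM at 6 h (adjusted p = 0.232 and 0.324).

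A gene was called differentially expressed (DEG) when its Benjamini-Hochberg adjusted p was under 0.05 in edgeR's quasi-likelihood test and its fold change was at least 1.5. Of 10439 genes tested, 134 (1.28%) were DEGs, 58 (0.556%) higher and 76 (0.728%) lower at 6 h. The 4 libraries of one duration lay wholly above those of the other in 115 of the 134, against 21.3% of all genes tested. Most DEGs were small in size, and 27 changed by 2-fold or more, 9 of them higher and 18 lower. Without the fold minimum, 987 genes (9.45%) were higher and 944 (9.04%) lower, and the median log2 fold change (log2FC, 6 h over 1 h throughout) over all genes tested was 0.0006. Without 6 h replicate B the DEGs numbered 101, of which 92 were among the 134, and the genes past the adjusted p alone numbered 1282. Without 6 h replicate C, 647 genes were higher on the adjusted p alone. One fit over all 16 libraries, 37 °C replicate D included, gave 1011 genes on the adjusted p alone, and it is named below where it ended the call of a named gene. Counts of list members below are read against these percentages, and "passed the test" means an adjusted p under 0.05 over all 10439 genes, whatever the fold. In bulk libraries a change in every cell and a change in the share of cells that express a gene cannot be told apart.

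**Figure D1:**
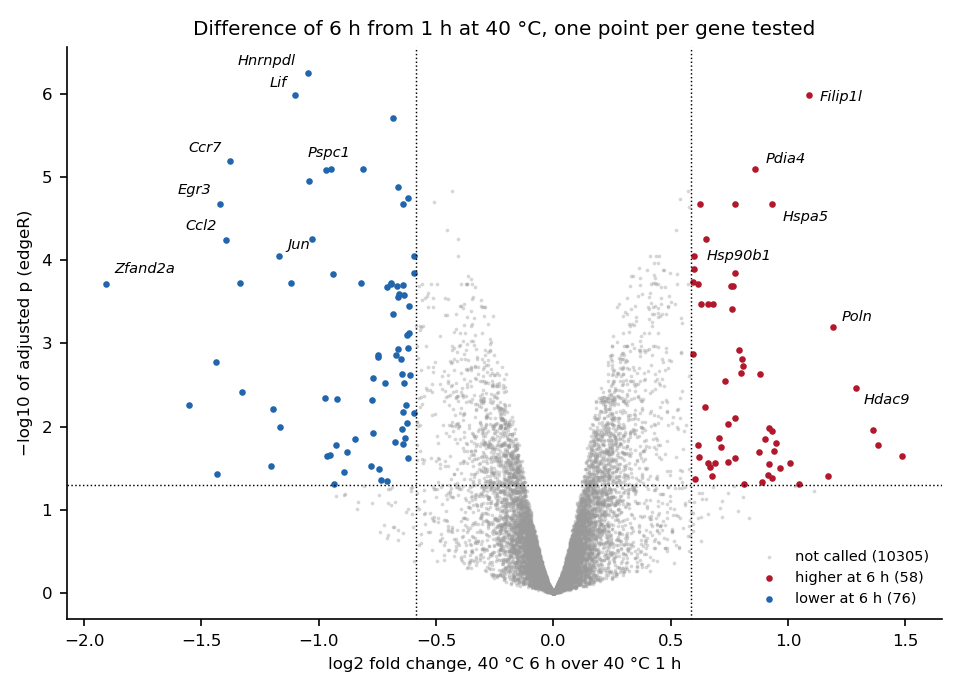
Each point is 1 of the 10439 genes tested, with its log2FC of 40 °C for 6 h over 40 °C for 1 h on the x axis and −log10 of its adjusted p on the y axis. Dotted lines mark the 1.5-fold and 0.05 limits, and the 58 genes called higher (red) and 76 called lower (blue) lie outside them; Zfand2a is the lowest named gene at −1.91.

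The heat shock genes did not move as 1 block between 1 h and 6 h. Of the list of HSP40, BAG and other co-chaperones, 28 were tested, 3 were DEGs lower at 6 h, and 6 passed the test higher without any reaching 1.5-fold. The list's median log2FC was 0.06. Zfand2a, which encodes a heat- and arsenite-inducible zinc finger protein that associates with the proteasome, fell most of all named genes. It was at 93.9, 33.8, 85.1 and 40.2 CPM in replicates A to D at 1 h and at 13.8, 17.3, 17.5 and 18.9 CPM at 6 h, a log2FC of −1.91 (SE 0.26, adjusted p = 0.000193). The 2 groups did not overlap, and the 6 h libraries lay at or below the level at 37 °C, which was 18.5 to 19.7 CPM in A to C and 19.4 in D.

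Dnajb1, the main heat-inducible HSP40, was at 125, 53.1, 113 and 59.7 CPM at 1 h and at 39.9, 54.5, 41.6 and 42.4 CPM at 6 h. The resulting log2FC was −0.97 (SE 0.21, adjusted p = 0.00453), and the groups overlapped, since 6 h replicate B exceeded 1 h replicate B. At 37 °C it was lower than in any heated library, at 26.4 to 30.2 CPM in A to C and 32.5 in D. Bag3, an HSP70 co-chaperone that directs damaged protein to autophagy, was at 208, 112, 194 and 122 CPM at 1 h and within 96.2 to 97.3 CPM in the 4 libraries at 6 h. Its log2FC was −0.72 (SE 0.14, adjusted p = 0.00299). Without 1 h replicate A it was −0.56, short of 1.5-fold but still past the test.

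In these 3 genes the 1 h libraries fell into a higher pair, replicates A and C, and a lower pair, replicates B and D. The same order, A and C both above B and D, was found in 19 of the 38 tested members of the heat shock protein and co-chaperone lists (50%), in 15 of 45 immediate early genes (33.3%) and in 13.7% of all genes tested. The order was noticed after the values were seen, and what set these cultures apart was not tested. It widened the spread at 1 h: Zfand2a had a mean of 63.3 ± 30.7 CPM (SD, n = 4) at 1 h and 16.9 ± 2.19 CPM (SD, n = 4) at 6 h.

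The gene that the files list as ENSCGRG00001001109, which was paired with the inducible HSP70 genes HSPA1A/HSPA1B through the study's tables, showed the same split. It was at 57.5, 15, 37.1 and 16.3 CPM at 1 h and at 13.7, 27.2, 14.2 and 11.5 CPM at 6 h, which overlapped. Its log2FC of −0.93 (SE 0.34) had an adjusted p of 0.0686. It passed the test without 1 h replicate B (−1.16, adjusted p = 0.0214), without 1 h replicate D (−1.14, adjusted p = 0.0219) or without 6 h replicate B (−1.27, adjusted p = 0.0316). It also passed with all 8 libraries when no filter on low counts was set (adjusted p = 0.00336) and in 1 fit with the other groups over 15 libraries, without 37 °C replicate D (adjusted p = 0.0367). All 8 heated libraries were above the 2.59 to 4.03 CPM of 37 °C replicates A to C and the 3.82 CPM of D. HSPA1A and HSPA1B are near-identical copies, and how reads were divided between such copies is not given in the sources used here.

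Other chaperones were higher at 6 h. ENSCGRG00001018983, paired in the same way with HSPA8, the constitutive HSP70, was at 294, 214, 269 and 289 CPM at 1 h and at 403, 577, 413 and 409 CPM at 6 h. With no overlap it rose by 0.76 (SE 0.11, adjusted p = 0.000203), and 0.62 was the smallest value when any 1 library was left out. Serpinh1, an ER-resident chaperone of procollagen also known as HSP47, was at 798, 620, 749 and 636 CPM at 1 h and at 942, 1263, 1001 and 872 CPM at 6 h, a log2FC of 0.54 (SE 0.10, adjusted p = 0.00128). Stip1, which links HSP70 to HSP90, rose from a mean of 596 ± 45.5 CPM (SD, n = 4) to 837 ± 150 CPM (SD, n = 4), a log2FC of 0.49 (SE 0.09, adjusted p = 0.00159). Ahsa2, an activator of HSP90, was higher by 0.42 (SE 0.10, adjusted p = 0.00994). Serpinh1 and Stip1 kept their groups apart, and in each of them 6 h replicate B was the highest. The number of co-chaperones that passed the test higher fell from 6 to 3 without 1 h replicate B, and likewise without 6 h replicate B and in the fit over 16 libraries.

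Of 10 cytosolic heat shock protein genes tested, 1 passed the test: Hsp90ab1, the constitutive HSP90, with a log2FC of 0.22 (SE 0.06, adjusted p = 0.0193). It did not pass without 1 h replicate B (0.18, adjusted p = 0.0675) or without 6 h replicate B (0.18, adjusted p = 0.0645), nor in the fit over 16 libraries (adjusted p = 0.103). The list of 10 holds ENSCGRG00001001109, while ENSCGRG00001018983 (HSPA8), a DEG, was not entered in it and is not counted there. Hspb1, the small heat shock protein HSP25/27, ranged from 88.2 to 150 CPM at 1 h and was at 111, 205, 207 and 99.6 CPM at 6 h. Its 6 h libraries formed a higher pair (B and C) and a lower pair (A and D), and its log2FC of 0.42 (SE 0.20) had an adjusted p of 0.155. Without 6 h replicate D it was 0.58 (adjusted p = 0.0361), and with no filter on low counts its adjusted p was 0.0266. Hsph1, an exchange factor for HSP70, spread from 451 to 875 CPM at 1 h and from 597 to 1070 CPM at 6 h (log2FC 0.14, SE 0.19, adjusted p = 0.648), although every heated library exceeded the 321 to 328 CPM of 37 °C replicates A to C and the 339 CPM of D. Hsf1 itself, the regulator, was at 118 CPM at 1 h and 124 CPM at 6 h (adjusted p = 0.296), and Hsf2 rose by 0.24 (SE 0.06, adjusted p = 0.0103), with an adjusted p of 0.0555 in the fit over 16 libraries. None of the 6 tested subunits of the TRiC/CCT chaperonin passed the test, with a median log2FC of −0.01.

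**Figure D2:**
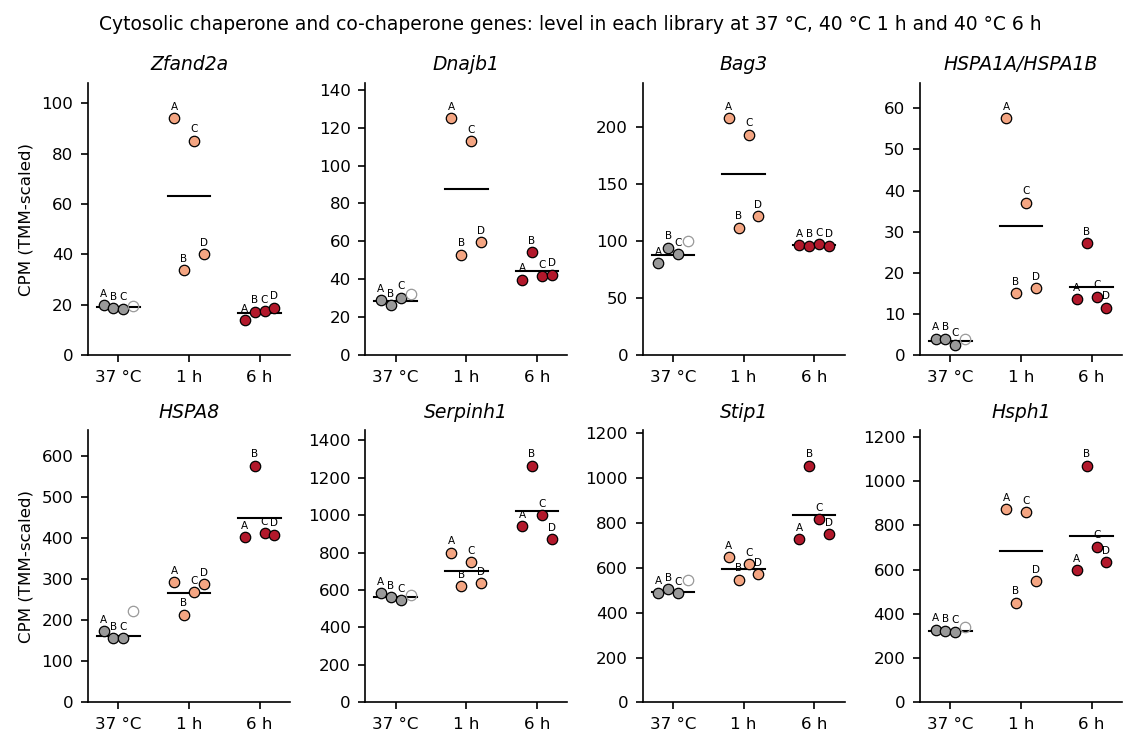
Levels of 8 chaperone and co-chaperone genes in CPM (y axis, from 0) in each library at 37 °C, 40 °C for 1 h and 40 °C for 6 h, with letters for replicates and a bar for the mean (at 37 °C over A to C, with D as an open circle). At 1 h replicates A and C lie above B and D in Zfand2a, Dnajb1, Bag3, HSPA1A/HSPA1B and Hsph1, whereas HSPA8, Serpinh1 and Stip1 are higher at 6 h with replicate B at the top.

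Many ER chaperones rose between 1 h and 6 h. Of 32 tested genes for chaperones and folding factors of the ER lumen, 15 (46.9%) passed the test higher and 2 (6.25%) lower, against 9.45% and 9.04% of all genes tested, and the median log2FC was 0.14. Leaving out any 1 library gave 13 to 17 higher. The 3 DEGs of the list were all higher. Hspa5, which encodes BiP, the HSP70 of the ER and a standard target of the unfolded protein response, was at 2455, 2160, 2524 and 2398 CPM at 1 h and at 3822, 5821, 4598 and 3934 CPM at 6 h. The groups did not overlap, and the log2FC was 0.93 (SE 0.10, adjusted p = 2.15e-05), or 1.91-fold. At 37 °C Hspa5 was at 2029 to 2160 CPM in A to C and at 2600 CPM in D, close to the 1 h libraries.

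Pdia4, a protein disulfide isomerase, was at 330, 301, 339 and 322 CPM at 1 h and at 512, 717, 586 and 525 CPM at 6 h (log2FC 0.86, SE 0.08, adjusted p = 8.08e-06). Its 1 h libraries lay near the 294 to 309 CPM at 37 °C (307 in D). Hsp90b1, which encodes GRP94, the HSP90 of the ER, was at 2553, 2324, 2705 and 2655 CPM at 1 h and at 3388, 4519, 3808 and 3785 CPM at 6 h (log2FC 0.60, SE 0.07, adjusted p = 8.88e-05). It kept its adjusted p but fell short of 1.5-fold without 1 h replicate B (0.56) or 6 h replicate B (0.52). All 3 genes were highest in 6 h replicate B, and in each of them the other 3 libraries at 6 h were also above every library at 1 h.

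The other members that rose did so by less than 1.5-fold. Manf, a secreted ER stress factor, rose by 0.57 on the log2 scale (SE 0.08), Sdf2l1, a BiP partner, by 0.55 (SE 0.10), and Dnajc3, an HSP40 of the ER, by 0.45 (SE 0.06). Pdia3 rose by 0.45 (SE 0.07), Hyou1, an HSP110-type ER chaperone, by 0.43 (SE 0.06), and Calr and Canx, the lectin chaperones calreticulin and calnexin, by 0.42 (SE 0.06) and 0.30 (SE 0.05). The adjusted p of these 7 genes ranged from 8.88e-05 for Dnajc3 to 0.0013 for Sdf2l1. The 2 members that fell were Fkbp10, a prolyl isomerase for collagen, at −0.16 (SE 0.04, adjusted p = 0.014), and Hspa13, at −0.18 (SE 0.05, adjusted p = 0.0198). Hspa13 did not pass without 1 h replicate C (−0.15), without 6 h replicate B (−0.14) or in the fit over 16 libraries (adjusted p = 0.0528). The collagen prolyl hydroxylase genes P4ha1 and P4ha2, whose products work in the ER, were higher by 0.33 (SE 0.08, adjusted p = 0.0073) and 0.51 (SE 0.12, adjusted p = 0.00912).

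**Figure D3:**
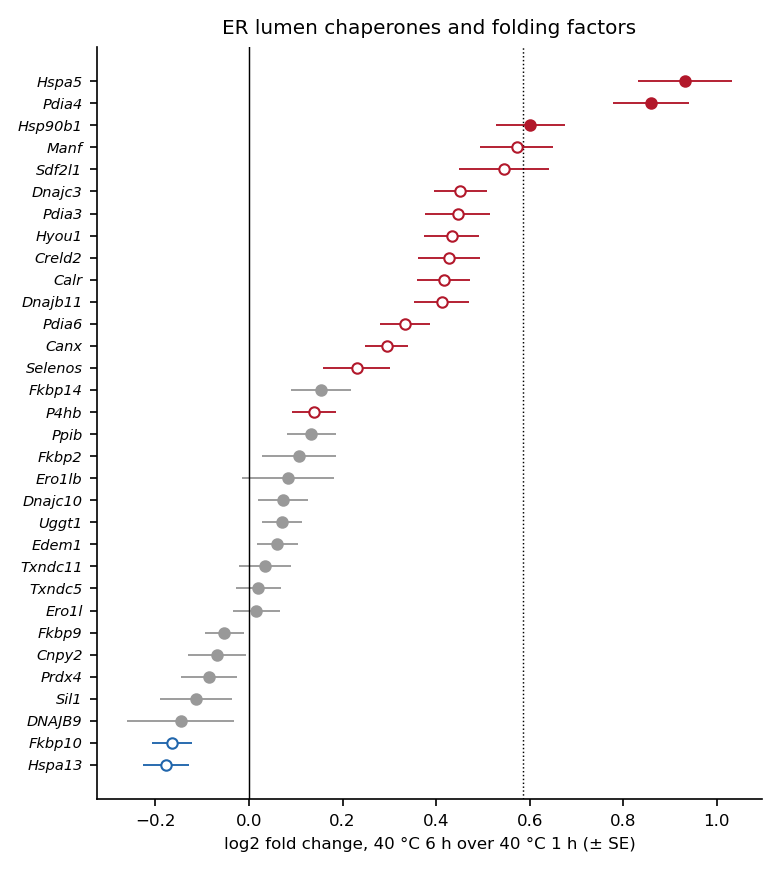
Log2FC of 6 h over 1 h at 40 °C (x axis) with its SE for the 32 tested genes of the ER lumen list. Filled red points passed both the adjusted p and the 1.5-fold limit (dotted line), open points the adjusted p alone, and grey points neither; Hspa5, Pdia4 and Hsp90b1 lie farthest to the right.

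Few of the genes that signal ER stress passed the test, and the activity of their products was not measured. Of 10 tested sensors and transcription factors, 1 (10%) passed the test higher and 2 (20%) lower, with a median log2FC of −0.06. Over all genes tested the shares were 9.45% and 9.04%, and in so short a list they rest on single genes. Xbp1, a transcription factor of the unfolded protein response, rose by 0.28 (SE 0.09, adjusted p = 0.0311). Its call was lost without 1 h replicate B or D or without 6 h replicate B, C or D, with adjusted p values between 0.0573 and 0.102, and in the fit over 16 libraries (0.0691). Atf6, which encodes a sensor of ER stress, fell, with a log2FC of −0.20 (SE 0.05, adjusted p = 0.0117), a call lost in the fit over 16 libraries (adjusted p = 0.254), where none of the 10 passed. In the list for ER-associated degradation and translocation, 5 of 28 tested genes passed the test higher (17.9%) and 2 lower (7.14%), and without 1 h replicate B, or in the fit over 16 libraries, 3 passed higher. Sel1l, a scaffold of the degradation ligase, was higher by 0.25 (SE 0.06, adjusted p = 0.00539) but not in the fit over 16 libraries (adjusted p = 0.343). Herpud1, which is usually induced together with BiP, fell instead by 0.43 (SE 0.10, adjusted p = 0.00612), from 34.9 to 47.9 CPM at 1 h to 28.3 to 34.6 CPM at 6 h, beside 32.0 to 36.7 CPM at 37 °C (35.4 in D).

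In the integrated stress response, which runs through ATF4, a transcription factor for amino acid supply, 5 of 21 tested genes (23.8%) fell and none passed the test higher, with a median log2FC of −0.07. Atf4 was at 187, 121, 209 and 144 CPM at 1 h and at 113, 115, 112 and 126 CPM at 6 h. The groups overlapped by 6 h replicate D alone, and the log2FC was −0.51 (SE 0.12, adjusted p = 0.00705). Slc7a11, the cystine transporter, fell by 0.68 (SE 0.18, adjusted p = 0.0154) and was the DEG of this list, a call lost without 1 h replicate C (−0.57) or 6 h replicate C (−0.59). Txnip, a thioredoxin inhibitor, fell by 0.51 (SE 0.08, adjusted p = 0.000286).

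Amino acid synthesis and transport genes were lower in 8 of 23 tested (34.8%) and higher in 1, a median of −0.12. The count of 8 became 5 without 1 h replicate C, 4 without 6 h replicate C, 13 without 6 h replicate B and 3 in the fit over 16 libraries. Slc7a1, the cationic amino acid transporter, fell by 0.51 (SE 0.05, adjusted p = 2.02e-05) and Slc7a5, the large neutral amino acid transporter, by 0.38 (SE 0.06, adjusted p = 0.000752, or 0.08 in the fit over 16 libraries). Slc38a2, a glutamine and alanine transporter, was the exception, with a rise of 0.34 (SE 0.06, adjusted p = 0.000609). Of 19 aminoacyl-tRNA synthetase genes, 6 (31.6%) fell and none passed higher. The largest of these falls was 0.31 for Cars (SE 0.08, adjusted p = 0.00965). Without 1 h replicate A, without 6 h replicate A or in the fit over 16 libraries 3 of them passed.

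Most immediate early genes that passed the test were lower after 6 h than after 1 h. Of 45 tested, 18 (40.0%) passed the test lower and 4 (8.89%) higher, with 8 DEGs lower and 1 higher, and the median log2FC was −0.22. Jun, a subunit of the transcription factor AP-1, was at 188, 106, 177 and 112 CPM at 1 h and at 67.6, 63.5, 63.1 and 64.6 CPM at 6 h. The log2FC of Jun was −1.17 (SE 0.14, adjusted p = 8.85e-05), and its 6 h libraries lay at or just below the 66.7 to 75.8 CPM of 37 °C (68.3 in D). Egr1 and Egr3, zinc finger transcription factors, went below their 37 °C level. Egr1 was at 34.1, 34.2, 36.5 and 27.7 CPM at 1 h and at 19.4, 14.2, 14.7 and 16.2 CPM at 6 h, beside 41.5 to 51.5 CPM at 37 °C and 41.5 CPM in D (log2FC −1.04, SE 0.10, adjusted p = 1.13e-05).

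Egr3 was at 11.8, 12, 14.5 and 8.85 CPM at 1 h and at 4.41, 3.48, 4.81 and 4.83 CPM at 6 h, and its log2FC was −1.42 (SE 0.15, adjusted p = 2.15e-05). Fos was low in all libraries, at 1.00 to 1.88 CPM at 1 h and 0.311 to 1.19 CPM at 6 h, and its log2FC was −1.20 (SE 0.37, adjusted p = 0.0299). That call was lost without 1 h replicate C or without 6 h replicate A, C or D, with adjusted p values between 0.0579 and 0.0934. The other DEGs that fell were Maff (−0.75, SE 0.14), Ier2 (−0.67, SE 0.12), Nab2, a repressor of EGR factors (−0.66, SE 0.07), and Junb (−0.64, SE 0.07). Myc fell by 0.32 (SE 0.08, adjusted p = 0.0113).

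A few members of the list went the other way. Ccn2, a matrix-associated growth factor also known as CTGF, was at 37.6 to 43.8 CPM at 1 h and 55.3 to 69.8 CPM at 6 h (log2FC 0.60, SE 0.08, adjusted p = 0.000129). Its adjusted p held, but it fell short of 1.5-fold without any of 4 libraries, namely 1 h replicate A (0.57) or D (0.58) and 6 h replicate C (0.58) or D (0.53). Fosl2, another AP-1 subunit, was higher by 0.37 (SE 0.07, adjusted p = 0.0028) and Klf4 by 0.30 (SE 0.05, adjusted p = 0.00108).

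Genes of the MAP kinase feedback list, which are induced by ERK signaling and only in part restrain it, were lower in 8 of 19 tested (42.1%) and higher in none. In the fit over 16 libraries 5 were lower. Their median log2FC was −0.23. Dusp5, a nuclear phosphatase of ERK, fell from 42.8 to 60.2 CPM at 1 h to 25.1 to 27.7 CPM at 6 h, below the 35.0 to 45.7 CPM at 37 °C and the 41.2 CPM of D (log2FC −0.97, SE 0.09, adjusted p = 8.33e-06). Etv5, an ETS transcription factor, fell by 0.95 (SE 0.09, adjusted p = 8.08e-06), Dusp1 by 0.82 (SE 0.11, adjusted p = 0.00019) and Phlda1 by 0.65 (SE 0.12, adjusted p = 0.00153). Phlda1 fell short of 1.5-fold without 1 h replicate A (−0.56).

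Many NF-kB pathway and cytokine genes were also lower at 6 h. NF-kB is a family of transcription factors that drives inflammatory genes. Of 36 genes tested, 17 (47.2%) passed the test lower and 3 (8.33%) higher, with 8 DEGs lower and 2 higher and a median log2FC of −0.31. Leaving out any 1 library gave 15 to 19 lower. Ccl2, a monocyte-attracting chemokine, was at 227, 239, 319 and 256 CPM at 1 h and at 113, 54.6, 103 and 124 CPM at 6 h (log2FC −1.40, SE 0.16, adjusted p = 5.74e-05). The 1 h libraries lay around or below the 256 to 297 CPM of 37 °C (335 in D), and the 6 h libraries lay below all of them. Ccl7, a neighbouring chemokine of the same family, fell by 1.34 (SE 0.18, adjusted p = 0.00019), and Ccr7, a chemokine receptor, by 1.38 (SE 0.12, adjusted p = 6.43e-06).

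Lif, an interleukin-6 family cytokine, was at 214, 176, 212 and 156 CPM at 1 h and at 92.9, 80.1, 93.6 and 86.9 CPM at 6 h. Lif had a log2FC of −1.10 (SE 0.09, adjusted p = 1.04e-06), and replicates A to C at 37 °C lay at 133 to 157 CPM, between the 6 h libraries and most of the 1 h libraries. Replicate D at 37 °C was at 96.6 CPM, close to the 6 h libraries. Il11, of the same cytokine family, fell by 0.77 (SE 0.20, adjusted p = 0.012) from a mean of 6.47 CPM, with an adjusted p of 0.0987 in the fit over 16 libraries. Tnfaip3, which encodes A20, an inhibitor of NF-kB, fell by 0.69 (SE 0.09, adjusted p = 0.000193). The adhesion molecule genes Icam1 and Vcam1 fell by 0.60 (SE 0.08, adjusted p = 0.000145) and 0.64 (SE 0.17, adjusted p = 0.016).

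Among the NF-kB subunits, Relb fell by 0.54 (SE 0.09, adjusted p = 0.00109) and Nfkb2 by 0.41 (SE 0.05, adjusted p = 8.85e-05), and Birc3, an inhibitor of apoptosis, fell by 0.53 (SE 0.08, adjusted p = 0.00037). Icam1 fell short of 1.5-fold without 1 h replicate B (−0.59) or 6 h replicate B (−0.50), and Vcam1 missed both limits without 1 h replicate B (−0.56, adjusted p = 0.0551) or C (−0.57, adjusted p = 0.0523). The 2 DEGs that rose were Cxcl12, a chemokine of stromal cells, at 3.10 to 4.28 CPM at 1 h and 4.98 to 7.09 CPM at 6 h (log2FC 0.80, SE 0.16, adjusted p = 0.0023), and Il15 (0.78, SE 0.18, adjusted p = 0.00799).

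**Figure D4:**
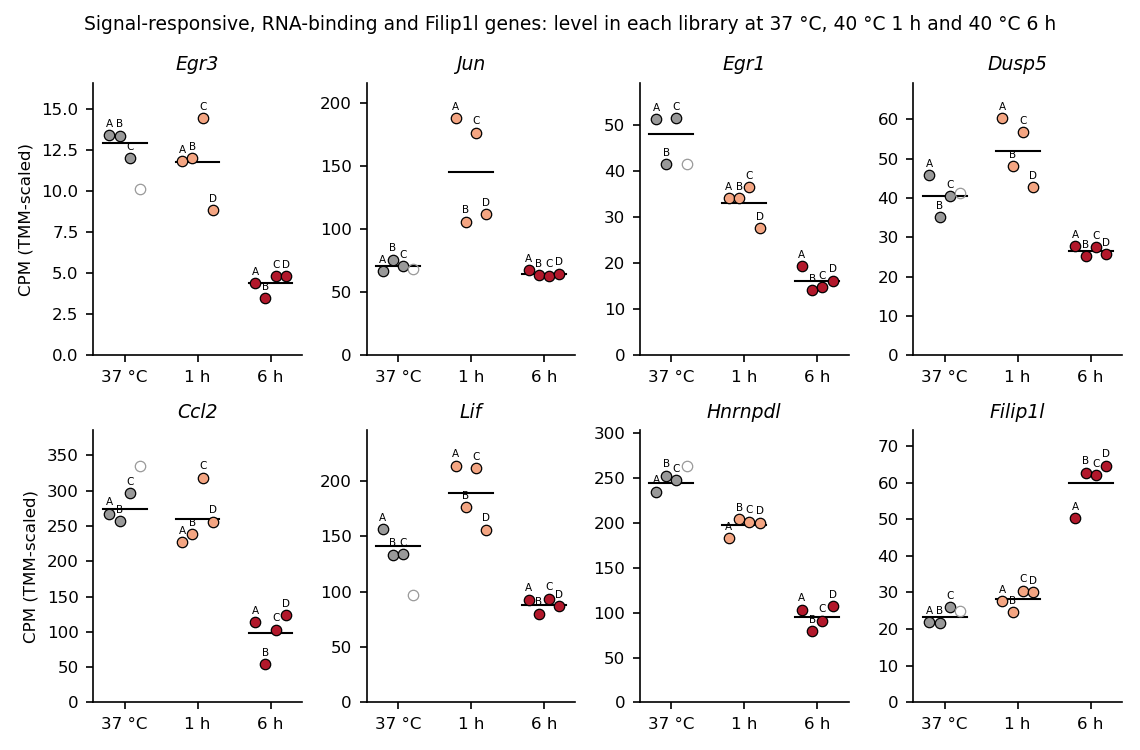
Levels of 8 genes in CPM (y axis, from 0) in each library at 37 °C, 40 °C for 1 h and 40 °C for 6 h, with letters for replicates and a bar for the mean (at 37 °C over A to C, with D as an open circle). All 4 libraries at 6 h lie below all 4 at 1 h in Egr3, Jun, Egr1, Dusp5, Ccl2, Lif and Hnrnpdl, and above them in Filip1l.

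Genes for RNA-binding proteins known to respond to temperature were lower in 7 of 13 tested (53.8%) and higher in 1, and 3 of them were DEGs lower. The median of that list was −0.13. Hnrnpdl, whose product regulates splicing and its own transcript, was at 183, 204, 201 and 200 CPM at 1 h and at 104, 79.7, 91.1 and 107 CPM at 6 h, the smallest adjusted p of the comparison (log2FC −1.05, SE 0.07, adjusted p = 5.67e-07). It was at 235 to 253 CPM at 37 °C (264 in D), so that the levels stepped down from 37 °C to 1 h to 6 h. Pspc1, a paraspeckle protein, was at 60.5 to 72.6 CPM at 1 h and 32.0 to 40.1 CPM at 6 h (log2FC −0.81, SE 0.08, adjusted p = 8.08e-06). Rbm3, an RNA-binding protein that is induced by cold, was at 54.1, 46.6, 60.8 and 47.5 CPM at 1 h and at 34.0, 32.5, 38.5 and 24.9 CPM at 6 h, beside 59.2 to 66.7 CPM at 37 °C (59.6 in D). Its log2FC was −0.69 (SE 0.11, adjusted p = 0.00044), and −0.58 without 6 h replicate D, short of 1.5-fold.

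Of 26 genes for CLK kinases and SR splicing factors, 7 (26.9%) passed the test in each direction and the median log2FC was 0; in the fit over 16 libraries 4 passed higher. Clk1, a kinase of splicing factors whose own splicing responds to temperature, was at 224, 147, 225 and 178 CPM at 1 h and at 109, 135, 128 and 129 CPM at 6 h, above the 76.8 to 85.5 CPM of 37 °C and the 98.4 CPM of D in both groups. Its log2FC was −0.62 (SE 0.10, adjusted p = 0.00079), and it fell short of 1.5-fold without 1 h replicate A (−0.54), 1 h replicate C (−0.55) or 6 h replicate A (−0.56). Rsrp1, which is related to the SR proteins, fell by 0.52 (SE 0.07, adjusted p = 0.000193). Clk2 and the RNA helicase gene Ddx17 went the other way, by 0.37 for Clk2 (SE 0.09, adjusted p = 0.00685) and 0.41 for Ddx17 (SE 0.06, adjusted p = 0.00028, or 0.0822 in the fit over 16 libraries).

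The transcripts encoded by the mitochondrial genome that passed the test were higher at 6 h. All 13 had a positive log2FC, 7 (53.8%) passed the test and none was a DEG, with a median of 0.24. ND4, a subunit of complex I, was at 2289, 2055, 1831 and 2585 CPM at 1 h and at 2473, 3609, 3008 and 2902 CPM at 6 h (log2FC 0.46, SE 0.10, adjusted p = 0.00579), with overlap. ND4L rose by 0.45 (SE 0.11, adjusted p = 0.00918) and CYTB, of complex III, by 0.36 (SE 0.09, adjusted p = 0.0132), which missed the threshold without 1 h replicate C (adjusted p = 0.0515) or 6 h replicate B (adjusted p = 0.0508) and in DESeq2's Wald test (adjusted p = 0.0521). COX1, a subunit of complex IV, had 0.05 (SE 0.11, adjusted p = 0.794), and its sign turned without 1 h replicate C or 6 h replicate B. The count of 7 became 4 without 1 h replicate B and 3 without 1 h replicate C or without 6 h replicate B. It was 1 in the fit over 16 libraries, where ND4L (adjusted p = 0.131) and CYTB (adjusted p = 0.108) were lost. The mitochondrial share of all counts spread over 2.39% to 3.12% at 1 h and 2.69% to 3.54% at 6 h, and its part in these differences was not tested. Nuclear genes for oxidative phosphorylation showed no such rise, with none of 31 higher, 2 lower and a median of −0.05.

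Genes of glycolysis and the response to low oxygen were lower in 7 of 22 tested (31.8%) and higher in none, with a median log2FC of −0.08. Vegfa, an angiogenic growth factor, fell by 0.57 (SE 0.09, adjusted p = 0.000698), from 19.7 to 26.8 CPM at 1 h to 15 to 16.9 CPM at 6 h. Pfkfb3, which makes an activator of glycolysis, fell by 0.34 (SE 0.09, adjusted p = 0.0131, or 0.195 in the fit over 16 libraries) and Hk2, a hexokinase, by 0.25 (SE 0.05, adjusted p = 0.0024). In glutathione and thioredoxin metabolism, Gss, glutathione synthetase, fell by 0.43 (SE 0.04, adjusted p = 1.47e-05) and Txnrd1 by 0.31 (SE 0.05, adjusted p = 0.000301), in a list of which 3 of 27 fell (11.1%) and 2 rose (7.41%), near the shares over all genes.

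Of 30 genes for cholesterol synthesis and uptake, 6 passed the test higher and 1 lower, with a median log2FC of 0.06. Idi1 and Fdft1, enzymes of isoprenoid and squalene synthesis, rose by 0.37 (SE 0.08, adjusted p = 0.00471) and 0.35 (SE 0.09, adjusted p = 0.0123). The 1 DEG was Tm7sf2, a sterol reductase, at 1.05 (SE 0.36, adjusted p = 0.0492), but it was at 0.0816 CPM, a single read, in 1 h replicate C and at 1.09 to 1.31 CPM in the other 1 h libraries. Its call held without 6 h replicate A and was lost without any of the other 7 libraries, with adjusted p values between 0.0504 and 0.151, and in the fit over 16 libraries (0.0887). Among fatty acid genes, Scd2, a desaturase that puts the first double bond into fatty acids, was at 93.9, 111, 116 and 116 CPM at 1 h and at 141, 136, 156 and 167 CPM at 6 h (log2FC 0.46, SE 0.07, adjusted p = 0.00044). Fads3, a further desaturase, fell by 0.55 (SE 0.08, adjusted p = 0.000283). In that list as a whole, 1 of 24 passed the test higher (4.17%) and 3 lower (12.5%). Among 38 phospholipid remodelling genes and lipases, 4 rose (10.5%) and 7 fell (18.4%), and the 7 became 2 without 6 h replicate B and 4 without 6 h replicate D or in the fit over 16 libraries.

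Some genes of mitosis were slightly higher at 6 h: 10 of 39 (25.6%) passed the test higher and 2 (5.13%) lower, with a median log2FC of 0.06, none of them past 1.5-fold. Hmmr, a spindle protein, rose by 0.28 (SE 0.06, adjusted p = 0.00644) and Bub1, a checkpoint kinase, by 0.23 (SE 0.05, adjusted p = 0.00455). Top2a, a topoisomerase, was at −0.16 (SE 0.05), a call that was lost without any of 6 libraries, 1 h replicates B, C and D and 6 h replicates A, B and C, and in the fit over 16 libraries. The count of 10 became 6 without 1 h replicate A, 1 h replicate B or 6 h replicate C, and 5 in the fit over 16 libraries. Of 48 genes for DNA replication and S phase, 10 (20.8%) fell and 3 (6.25%) rose, with a median of −0.01, and 6 fell in the fit over 16 libraries. The largest falls were in the G1 cyclin genes Ccne1 (−0.43, SE 0.09, adjusted p = 0.00314) and Ccnd1 (−0.34, SE 0.05, adjusted p = 0.00028). A further list held genes of the actin cytoskeleton and of YAP and SRF, transcription regulators that respond to it. Of its 22 tested genes, 7 (31.8%) were lower and 1 (4.55%) higher. Ccn2, given above as a DEG higher at 6 h, was counted with the immediate early genes and not in this list. Ankrd1 fell by 0.57 (SE 0.08, adjusted p = 0.000203) and Thbs1, thrombospondin, by 0.57 (SE 0.09, adjusted p = 0.000622). In extracellular matrix and adhesion, 3 of 30 rose (10%) and 4 fell (13.3%), near the shares over all genes. Leaving out any 1 library gave 3 to 4 higher and 0 to 6 lower. Loxl1, a collagen and elastin cross-linker, was among those that rose, by 0.40 (SE 0.06, adjusted p = 0.000365). Aen, a nuclease induced by p53, was the 1 DEG among 18 tested p53 targets. It fell by 0.62 (SE 0.06, adjusted p = 1.78e-05), and by 0.58 without 1 h replicate C, short of 1.5-fold.

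**Figure D5:**
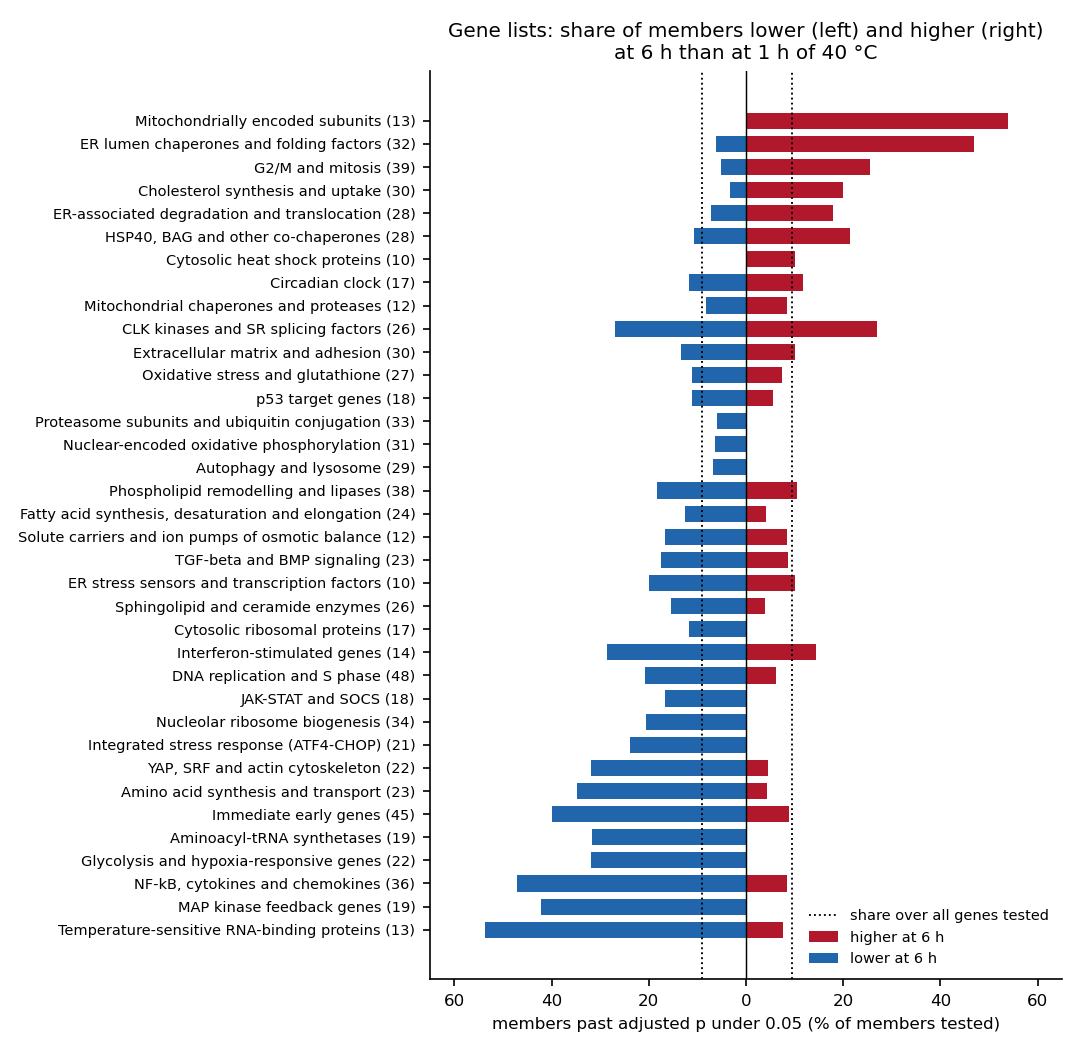
For each gene list with at least 10 tested members (number in brackets), bars give the percentage of tested members that passed an adjusted p of 0.05 higher (red, right) or lower (blue, left) at 6 h than at 1 h. Dotted lines mark 9.45% higher and 9.04% lower over all genes tested; ER lumen chaperones reach 46.9% higher, and NF-kB and cytokine genes 47.2% lower.

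In each of the remaining lists at most 7 members passed the test. None of 33 genes for proteasome subunits and ubiquitin conjugation, of 29 for autophagy and lysosome or of 17 cytosolic ribosomal protein genes passed higher, and 2 of each list passed lower (6.06%, 6.9% and 11.8%). In several of the others the share that fell was above the 9.04% over all genes. Such shares rest on few genes in short lists, and whether they differ from that over all genes was not tested. Of 34 genes for nucleolar ribosome biogenesis, 7 (20.6%) fell and none rose, and 4 fell without 1 h replicate B or in the fit over 16 libraries. In signaling, 3 of 18 JAK-STAT and SOCS genes fell (16.7%), and of 23 TGF-beta and BMP genes 4 fell (17.4%) and 2 rose (8.7%), which became 2 and 1 in the fit over 16 libraries. Of 26 sphingolipid and ceramide enzymes, 4 fell (15.4%) and 1 rose (3.85%). Leaving out any 1 library gave 0 to 4 lower and 0 to 1 higher. Of 14 interferon-stimulated genes, 4 fell (28.6%), 1 of them a DEG, and 2 rose (14.3%), and 2 fell in DESeq2's Wald test or in the fit over 16 libraries. Mitochondrial chaperones and proteases (12 tested) and clock genes (17 tested) had as many higher as lower, 1 (8.33%) and 2 (11.8%) in each direction. Of 12 solute carriers and pumps of osmotic balance 2 fell (16.7%) and 1 rose, and of 9 BCL2 family genes 1 fell (11.1%).

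Ranked by size alone, among genes with a symbol, at least 1 CPM on average and no overlap, the 12 largest rises began with Hdac9, a histone deacetylase, and Poln, a DNA polymerase. Both were low, at 0.490 to 1.85 CPM and 1.08 to 1.43 CPM at 1 h and at 2.80 to 3.33 CPM and 2.38 to 3.23 CPM at 6 h, with log2FC of 1.29 for Hdac9 (SE 0.26, adjusted p = 0.00342) and 1.19 for Poln (SE 0.19, adjusted p = 0.000635). Filip1l, whose product binds filamin A, was better covered. It was at 27.7, 24.7, 30.5 and 30.1 CPM at 1 h and at 50.3, 62.7, 62.0 and 64.6 CPM at 6 h (log2FC 1.09, SE 0.08, adjusted p = 1.04e-06). At 37 °C it was at 21.8 to 26.0 CPM, and at 24.9 CPM in D, so that 6 h stood apart from both other groups. The others, apart from Hspa5 and Tm7sf2, were Fam83h (0.95), Rnf32 (0.94), Myh7b (0.93), 4430402I18Rik (0.92), Oasl2 (0.90), Sprr1a (0.88) and Cdc42ep2 (0.88), each with a mean of at most 6.63 CPM in either group and adjusted p values between 0.00234 and 0.0201. The calls of Fam83h (6 h replicate C), Rnf32 (1 h replicate B, 6 h replicate D) and Cdc42ep2 (1 h replicate A or C, 6 h replicate C or D) were lost without the libraries named, with adjusted p values between 0.0565 and 0.0703. DESeq2's Wald test put Rnf32 at an adjusted p of 0.0654 and Oasl2 at 0.0502, and the fit over 16 libraries put Rnf32 at 0.075.

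The 12 largest falls were Zfand2a, Capn8, a calpain (−1.44, SE 0.27, adjusted p = 0.0017), Egr3, Ccl2, Ccr7, Ccl7, Atp6v1g2, a subunit of the vacuolar proton pump (−1.33, SE 0.28, adjusted p = 0.00384), Areg, an EGF receptor ligand (−1.19, SE 0.27, adjusted p = 0.00612), Jun, Gm1110 (−1.16, SE 0.29, adjusted p = 0.00999), Nxpe4 (−1.12, SE 0.15, adjusted p = 0.00019) and Lif. The call of Areg was lost in the fits over 15 libraries (adjusted p = 0.173) and 16 libraries (adjusted p = 0.183). Capn8, Atp6v1g2, Areg and Gm1110 were at or under 3.18 CPM in every one of the 8 libraries. Without a symbol in the files were 12 DEGs, among them ENSCGRG00001018983, which was paired with HSPA8 above. The highest 2 of them in level, ENSCGRG00001004990 and ENSCGRG00001010711, were chosen after their values were seen. The first rose from 2298 ± 281 CPM (SD, n = 4) to 3928 ± 690 CPM (SD, n = 4) and the other from 1784 ± 296 CPM (SD, n = 4) to 3022 ± 542 CPM (SD, n = 4), with log2FC of 0.78 for the first (SE 0.10, adjusted p = 0.000145) and 0.76 for the other (SE 0.12, adjusted p = 0.000391). Their 4 libraries at 6 h were all above their 4 libraries at 1 h.

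Set beside the mean of 37 °C replicates A to C, the DEGs were sorted by the order of the group means, however small the differences between them. Of the 76 lower at 6 h, the 1 h mean lay between those at 37 °C and 6 h in 38, as in Hnrnpdl, Rbm3, Egr1 and Ccl2. In 34 the 37 °C mean lay between the other 2, as in Zfand2a, Jun, Dusp5 and Lif, and in 4 the 6 h mean lay between 1 h and 37 °C, as in Dnajb1, Bag3 and Clk1. Of the 58 higher at 6 h, the 1 h mean was between the other 2 in 28, as in Hspa5, Pdia4, Filip1l and HSPA8, and the 37 °C mean was between them in 29, as in Ccn2. These orders are descriptions of means and were not tested. A 37 °C mean close to that of a heated group could fall on either side of it.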

How the data were processed

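Total RNA from CHO cultures was sequenced as paired-end TruSeq libraries. The authors mapped the reads to the CHOK1GS_HDv1 genome with CLC Genomics Workbench and deposited raw read counts per gene, 20824 genes in 16 libraries, without normalization. The annotation release, strand setting and treatment of reads that match several genes are not given in the sources used here, so values of near-identical or overlapping genes are uncertain. The study describes the 4 replicates of a group as biological repeats. The labels do not say what letters A to D have in common across groups, and the main fit did not use them as a block.

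The 8 libraries at 40 °C (4 after 1 h, 4 after 6 h) were fitted with edgeR 4.0.16 (R 4.3.3): filterByExpr, TMM factors, quasi-likelihood test, Benjamini-Hochberg adjustment over the 10439 genes kept, and a 1.5-fold minimum for DEGs. Levels are CPM, counts scaled to library size with TMM factors. The SE of a log2 fold change was derived from the F statistic. Total counts of 11153350 to 14668365 put 1 read at about 0.1 CPM, so genes near 1 CPM rest on few reads. The code was tested on simulated data.

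Genes named were the 12 largest rises and 12 largest falls among DEGs with no overlap, a symbol and at least 1 CPM on average, members of the gene lists, and a few stress genes whatever their result. The lists and genes were chosen with earlier results of these data known, so their counts are no independent evidence. Symbols are those of the files. For 4 identifiers without one, the symbol was found through the study's own tables, by the row with identical statistics. Alternatives were DESeq2 1.42.0 (its size factors, and its Wald test), other filters, other sets of libraries, a replicate block, other fold limits and each library left out. Promoter motifs were not analysed here, since no sequence was at hand.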

Additional observations from a re-analysis of the deposited data

Results flagged for a closer look

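Of 228 groups of 4 libraries (114 named genes at 1 h and 6 h), 12 held 1 library far from the other 3 by Dixon's ratio. Chance alone gives about 1 in 20, so the number flagged was close to that of chance. Of these, 8 were at 6 h, and 5 of the 8 were replicate B.

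In 6 h replicate B, ENSCGRG00001018983 (HSPA8) was at 577 CPM against 403 to 413 CPM in the other 3 libraries, ENSCGRG00001001109 (HSPA1A/HSPA1B) at 27.2 against 11.5 to 14.2 CPM, Calr at 2753 against 2336 to 2376 CPM, Loxl1 at 299 against 243 to 252 CPM and Fos at 1.19 against 0.311 to 0.441 CPM. All 5 values were above the other libraries of the group.

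The other 3 at 6 h were Slc38a2 in replicate A at 498 CPM against 572 to 583 CPM, Phlda1 in replicate A at 13.7 against 11.1 to 11.5 CPM and Aen in replicate D at 36.7 against 39.6 to 40.2 CPM. At 1 h they were Cxcl12 in replicate A at 4.28 against 3.10 to 3.18 CPM, Manf in replicate B at 133 against 151 to 153 CPM, and in replicate C Ier2 at 8.41 against 7.07 to 7.29 CPM and Il15 at 1.88 against 2.52 to 2.56 CPM. Whether anything but chance set these libraries apart was not tested.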

How the results depend on the processing

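The count of 134 DEGs stayed within 1.5 times of itself with DESeq2's size factors (135), DESeq2's Wald test (116, of which 112 shared), no filter on low counts (155), at least 10 counts in each library (114), and 1 fit over 15 (149) or 16 libraries (116). A test against a fold of 1.5 itself (glmTreat) called 8 genes, 1 higher and 7 lower, and a minimum of 2-fold called 27, of which 9 were higher and 18 lower. Leaving out each library in turn gave 101 (without 6 h replicate B) to 175 DEGs (without 6 h replicate A), with 39 to 76 higher and 62 to 99 lower. On the adjusted p alone, leaving out a library gave 1282 to 2080 genes, with 647 to 1080 higher and 623 to 1000 lower, and the fit over 16 libraries, whose spread includes 37 °C replicate D, gave 1011, with 514 higher and 497 lower. The cause of these differences was not tested. The gap between the groups on the first principal component was 13.2, and 8.98 with the 500 most variable genes.

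Over 114 named genes and all alternatives, 1621 of 1752 values kept their call, 120 lost it, 7 gained it and 4 changed sign. The last were COX1, whose log2FC was −0.045 without 1 h replicate C and −0.032 without 6 h replicate B (range −0.045 to 0.126 over the 8 libraries left out), and Hsph1, at −0.018 without 1 h replicate B and −0.08 without 6 h replicate B (range −0.08 to 0.281). Neither had passed the test. Of 52 named DEGs, 34 kept their call under every alternative but glmTreat.

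The labels do not say what libraries of the same letter have in common. Deviations of same-lettered libraries from their group means correlated by −0.054 to 0.17, and those of other letters by −0.23 to 0.18. A replicate block gave 138 DEGs (132 shared) and 2297 genes on the adjusted p alone. The main fit, which had no block, gave 134 and 1931. The second principal component, 15.3% of the variance, put the letters in the same order in both groups. Its scores for A to D were 7.3, 4.99, −3.93 and −9.26 at 1 h and 7.55, 5.41, −3.69 and −8.37 at 6 h. Not every library correlated best with its own letter, and what the letters share was not tested. Promoter motifs were not run.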
